A study of Saccharomyces cerevisiae with 6 samples.

Results

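The mitochondrial ribosomal protein genes of budding yeast were followed on 6 expression arrays that compared cells carrying the soybean transcription factor gene GmbHLHm1 with cells carrying an empty vector. Members were chosen by name: every gene whose annotated symbol is MRPL, MRPS, MRP or RSM followed by digits and nothing else. This gave 66 of the 5449 genes tested, each with 1 probe set, of which 37 encode proteins of the large subunit and 28 belong with the small subunit. The remaining gene, MRP8, was named after an early sequence similarity and is not known as a ribosomal protein. It is given as the rule found it and kept out of both subunits. No member was removed by a filter, and on all 6 arrays all 66 lay above the background level. The lowest member value on any array was 7.90 on the log2 scale, and the highest background level was 4.75.

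All 6 cultures were of strain 26972c, an ammonium transport mutant whose genotype the labels give as mep1-1, mep2∆, Mep3 and ura-. The 3 control cultures held the vector pYES3 without an insert, and the 3 others held pYES3 with GmbHLHm1 (also SAT1), a gene for a basic helix-loop-helix transcription factor placed behind a promoter that galactose switches on. Both groups had first grown on glucose with proline as nitrogen source, and both were then moved to 2% galactose with 1 mM ammonium for 12 h at 28 °C. The comparison asks which yeast transcripts differ between cells with and without the soybean factor, and here whether the genes of the mitochondrial ribosome are among them. The cultures were inoculated from shared starters, so p-values measure the spread between these 6 samples. Whether a group came from 1 transformant or several is not stated, and differences that came with a transformant or a starter cannot be told apart from those of the insert.

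Mitochondria keep their own ribosome, which in yeast translates a handful of messages from mitochondrial DNA, most of them for core subunits of the respiratory chain and ATP synthase. Its ribosomal RNAs and a single protein come from mitochondrial DNA, and all other proteins are encoded in the nucleus, made in the cytosol and imported. Many of these proteins have counterparts in the bacterial ribosome, and the others were added in the course of mitochondrial evolution. In yeast, cells that lose mitochondrial translation cannot respire, and they tend to lose their mitochondrial DNA.

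Values are log2 intensities as the authors' robust multi-array average (RMA) gave them, and each change is the GmbHLHm1 mean minus the empty vector mean of the same probe set. Array medians over all tested genes were 10.32 to 10.37. Of the genes that the strain touches, the deleted ammonium permease gene MEP2 was above background on 0 of 6 arrays. The mutated MEP1 fell by 0.46 (adjusted p = 0.0109, or 0.052 without empty vector replicate 3). MEP3, the remaining ammonium permease gene, changed by 0.91 (adjusted p = 0.0138, or up to 0.0677 without 1 array), and URA3, for a pyrimidine synthesis enzyme, by 1.35 (adjusted p = 0.0105, or up to 0.0533 without 1 array). A signal outside the tested genes went along with the groups: the 16 controls for cytosolic 18S and 25S ribosomal RNA were lower with GmbHLHm1, with array means of 8.80 to 9.46 in the empty vector group and 7.83 to 8.27 with GmbHLHm1. Its source, and its part in the results below, was not tested.

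Of the 66 genes, 5 rose in GmbHLHm1 cells and none fell, and none changed by as much as 0.5 on the log2 scale, a fold of 1.41. Of these calls only that of MRPL23 held with the replicate number as a block, with all probe sets fitted together, or without empty vector replicate 1 or 3. The 5 were MRPL23, MRPL38 and MRPL19 of the large subunit and MRPS9 and RSM24 of the small subunit. They are 7.58% of the members. Over all tested genes 12.1% passed the same test, 7.45% higher and 4.64% lower, so the share that rose among the members was close to that among all genes. Calls were made with limma's moderated statistic (two-sided), adjusted by Benjamini and Hochberg's method across the 5449 genes. At an unadjusted p under 0.05 with limma, 14 of the 66 members (21.2%) were higher and 1 of the 66 was lower. Among all genes 16.4% were higher and 10.6% lower.

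The members as a group lay slightly above 0. Their median log2 change was 0.09, and that over all tested genes was 0.02. A total of 57 members, 86.4%, had a change above 0, as did 56.7% of all genes. The middle of the distribution was narrow, with quartiles at 0.04 and 0.16 among the members and at -0.06 and 0.11 among all genes. The extremes were RSM7 at -0.19 and MRPL23 at 0.30, while all tested genes ran from -1.45 to 5.82.

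**Figure D1:**
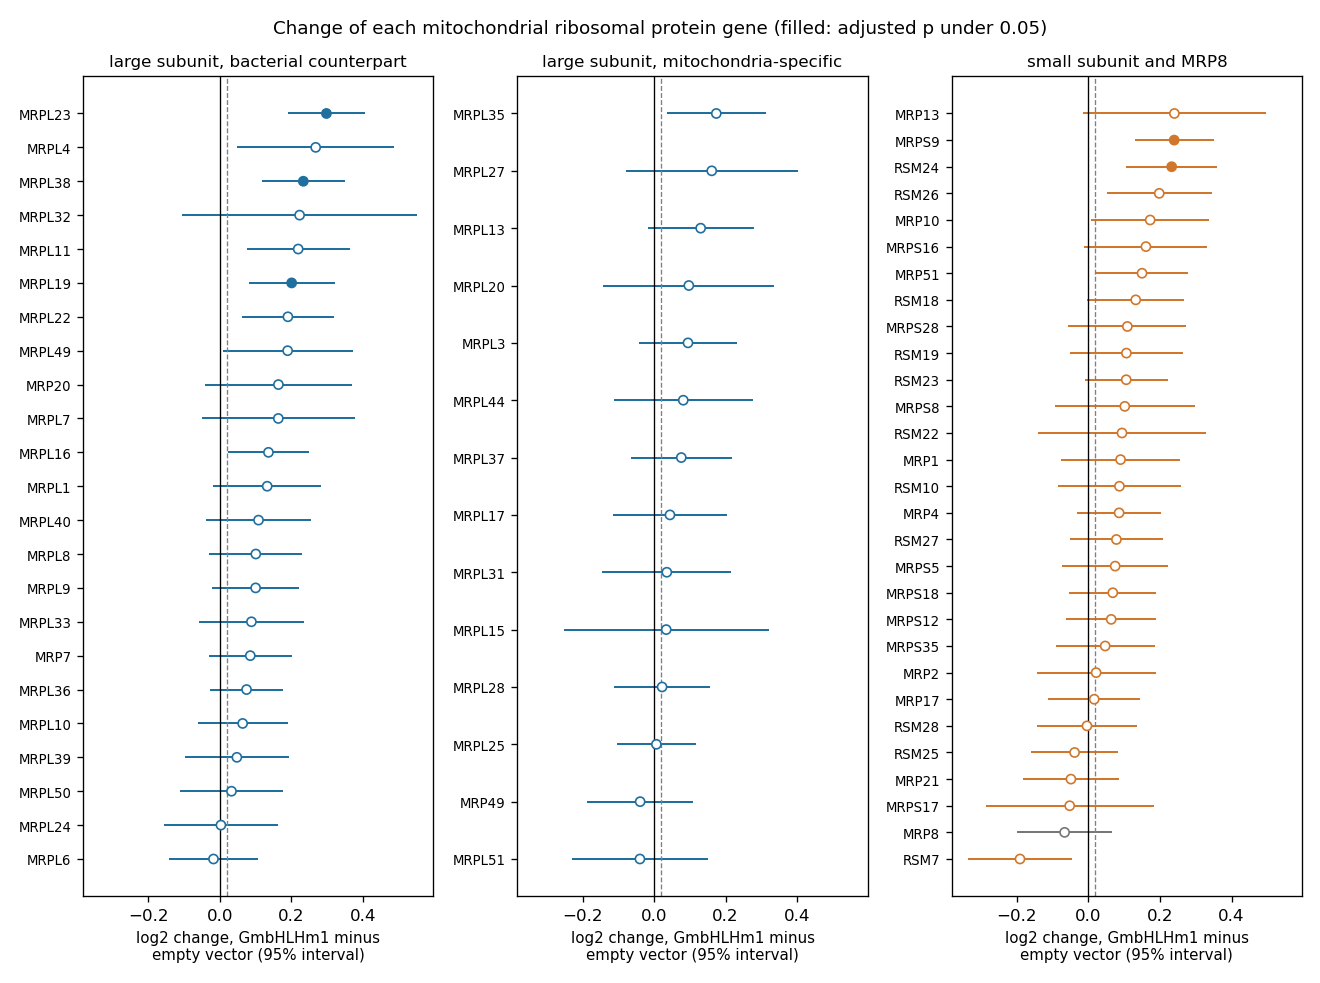
Log2 change of each gene, GmbHLHm1 minus empty vector (points), with the unadjusted 95% interval of limma's fit (lines), in 3 panels for large subunit proteins with a bacterial counterpart, large subunit proteins specific to mitochondria, and the small subunit with MRP8 in grey. Filled points passed the test at an adjusted p under 0.05, the solid line marks 0 and the dashed line the median of all tested genes, 0.02. The 5 filled points lie between 0.20 and 0.30, and most open points lie to the right of 0.

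MRPL23, which encodes a large subunit protein with a bacterial counterpart, had the largest change of the 66. Its log2 values were 11.43, 11.51 and 11.49 on the empty vector arrays and 11.81, 11.76 and 11.76 on the GmbHLHm1 arrays. All 3 GmbHLHm1 values lay above all 3 controls, and the group SDs were 0.04 and 0.03. The change was 0.30 ± 0.05 (SE, n = 3 per group; adjusted p = 0.0076), a fold of 1.23, which ranked 431 among all 5449 genes counted from the highest. It was the sole member that passed in every fit with 1 array removed (6 of 6), with an adjusted p between 0.0146 and 0.0459.

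MRPL38 encodes another large subunit protein conserved from bacteria. It stood at 11.30, 11.37 and 11.34 with the empty vector and at 11.64, 11.54 and 11.54 with GmbHLHm1, without overlap. The change was 0.23 ± 0.05 (SE; adjusted p = 0.0252). It passed in 3 of the 6 fits without 1 array and not without any 1 empty vector array, where the adjusted p reached 0.118.

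MRPL19 is the counterpart of a bacterial protein at the base of the large subunit's stalk, where translation factors bind. It read 9.58, 9.65 and 9.65 in controls and 9.78, 9.81 and 9.90 with GmbHLHm1. The change of 0.20 ± 0.05 (SE) had an adjusted p of 0.0465, nearest of the 5 to the threshold. It passed in 1 of the 6 fits without 1 array (adjusted p up to 0.186), and it did not pass after quantile normalization (0.0784) or median centring (0.0735).

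MRPS9, a small subunit protein with a bacterial counterpart, had values of 11.01, 11.12 and 11.05 in controls and 11.31, 11.29 and 11.29 with GmbHLHm1. The GmbHLHm1 arrays were close together, with an SD of 0.008, and the controls had an SD of 0.06. The change was 0.24 ± 0.05 (SE; adjusted p = 0.0189). It passed in 3 of the 6 fits and was lost when empty vector replicate 1, empty vector replicate 3 or GmbHLHm1 replicate 3 was removed, with an adjusted p up to 0.093.

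RSM24, a small subunit protein that bacteria lack, stood at 9.82, 9.96 and 9.96 in controls and at 10.13, 10.17 and 10.14 with GmbHLHm1. The groups did not overlap, and empty vector replicate 1 was the lowest of the 6 arrays. The change was 0.23 ± 0.05 (SE; adjusted p = 0.0359). It passed in 1 of the 6 fits without 1 array, that without GmbHLHm1 replicate 1, and otherwise had an adjusted p up to 0.12.

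Other large subunit genes had changes as large without passing. MRPL4, whose product lies near the exit of the peptide tunnel, had values of 9.42, 9.60 and 9.71 in controls and 9.84, 9.72 and 9.98 with GmbHLHm1. The groups did not overlap, but both were wide, with SDs of 0.14 and 0.13, and the change of 0.27 ± 0.09 (SE) had an adjusted p of 0.116. MRPL32, whose precursor is cut by a protease of the inner membrane before it can join the large subunit, was more variable still. Its values were 8.51, 8.95 and 8.90 in controls and 9.20, 8.80 and 9.03 with GmbHLHm1. The groups overlapped, and the change of 0.22 ± 0.14 (SE) had an adjusted p of 0.357.

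Near the other end, MRPL51 and MRP49, both specific to mitochondria, had changes of -0.04 and -0.04, with adjusted p of 0.8 and 0.748. MRPL6, a protein shared with bacteria, had a change of -0.02, and MRPL24, also shared, had 0.004. MRP7, whose bacterial counterpart reaches into the peptidyl transferase centre, had a change of 0.09 ± 0.05 (SE; adjusted p = 0.317). For these 5 genes the values of the groups overlapped.

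The steadiest gene on the GmbHLHm1 arrays was MRPL36, the counterpart of a bacterial large subunit protein. It read 11.03, 11.05 and 11.04 there (SD 0.007) and 10.92, 10.99 and 10.99 in controls, a change of 0.08 with an adjusted p of 0.317. The least steady was MRPL15, a protein specific to mitochondria. Its GmbHLHm1 values were 8.39, 8.04 and 8.43 (SD 0.21) and its controls 8.08, 8.30 and 8.38, a change of 0.03 with an adjusted p of 0.893.

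In the small subunit, MRP13, which is specific to mitochondria, had a change of 0.24 ± 0.11 (SE; adjusted p = 0.212), with 1 control at 8.72 and the other 2 at 9.07 and 9.07 against 9.23, 9.06 and 9.28. RSM26, a mitochondria-specific protein of the small subunit, had values of 9.65, 9.80 and 9.83 in controls and 9.99, 9.89 and 9.99 with GmbHLHm1. Its groups did not overlap, and its change of 0.20 ± 0.06 (SE) had an adjusted p of 0.0904. MRPS12, the counterpart of the bacterial protein at the decoding centre, had a change of 0.06 ± 0.05 (SE; adjusted p = 0.499).

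RSM7 stood apart from the other members. It encodes the counterpart of a protein that starts the assembly of the small subunit's head in bacteria. Its values were 11.70, 11.74 and 11.72 in controls and 11.41, 11.55 and 11.62 with GmbHLHm1. It was the sole member whose GmbHLHm1 values all lay below the controls, an arrangement that 13.9% of all tested genes had. Its change of -0.19 ± 0.06 (SE) had an adjusted p of 0.0978. The next lowest small subunit genes were MRPS17, MRP21 and RSM25, at -0.05, -0.05 and -0.04, and their groups overlapped. MRPS17 was tight in controls, at 9.12, 9.16 and 9.13, and spread over 9.31, 9.05 and 8.89 with GmbHLHm1.

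RSM22, a methyltransferase-like protein found with the small subunit, had values of 7.97, 7.90 and 8.16 in controls and 8.28, 7.98 and 8.04 with GmbHLHm1, with a change of 0.09 ± 0.10 (SE; adjusted p = 0.602). MRP8, outside the ribosome, read 13.13, 13.22 and 13.12 in controls and 13.17, 13.07 and 13.03 with GmbHLHm1. Its change was -0.07 ± 0.06 (SE; adjusted p = 0.501), the second lowest of the 66.

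The subunits were then set side by side. In the large subunit 3 of 37 genes rose and none fell, and in the small subunit 2 of 28 rose and none fell. These shares, 8.11% and 7.14%, were both near the 7.45% of all genes that rose. The median changes were 0.10 and 0.09. The small subunit's median was 0.05 without GmbHLHm1 replicate 1 and 0.06 without empty vector replicate 1, and without GmbHLHm1 replicate 3 the order turned, with 0.09 in the large and 0.10 in the small subunit. A change above 0 was seen in 34 of the 37 large subunit genes and 23 of the 28 small subunit genes. The mean change was 0.11 in the large and 0.08 in the small subunit, a difference of 0.025.

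To see how that difference stood against the arrays, each gene's values were expressed as deviations from its own empty vector mean and averaged per array. The large subunit minus the small subunit was -0.015, 0.014 and 0.0009 on the empty vector arrays and 0.017, -0.003 and 0.06 on the GmbHLHm1 arrays. These values overlapped between the groups, and their SDs were 0.015 and 0.032 (n = 3 per group). A difference between the subunits was thus smaller than the spread between the GmbHLHm1 arrays. No p-value is given, since genes of a subunit are not replicates.

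Splitting each subunit by ancestry gave a wider range. This split was made by hand from general knowledge and not from the files, and it leaves out RSM22. The place of MRP51, counted here as specific to mitochondria, is uncertain, and the small subunit medians depend on it. The 23 large subunit genes with a bacterial counterpart had a median change of 0.13, and the 14 specific to mitochondria had a median of 0.06. In the small subunit the order was the other way, with a median of 0.08 for the 16 genes with a bacterial counterpart and 0.11 for the 11 specific to mitochondria. Over both subunits the medians were 0.10 for the 39 conserved and 0.08 for the 25 specific genes. These differences were not tested.

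The members varied together across arrays in a way that cuts through the groups. Empty vector replicate 1 was the lowest of the 3 controls for 53 of the 66 members, 80.3%, compared with 48.6% of all genes. GmbHLHm1 replicate 2 was the lowest of its group for 38 members, 57.6%, compared with 35.1% of all genes. Averaged over the 66, the deviations were -0.068, 0.048 and 0.019 on the empty vector arrays and 0.142, 0.036 and 0.107 on the GmbHLHm1 arrays. GmbHLHm1 replicate 2 thus lay below empty vector replicate 2, so the averages overlapped. The averages over all genes did not, at -0.024, 0.016 and 0.007 against 0.065, 0.036 and 0.034. On GmbHLHm1 replicate 2 the members therefore stood no higher than the average gene, with a difference of 7.9e-05. On GmbHLHm1 replicates 1 and 3 this difference was 0.077 and 0.073, and on the empty vector arrays it was -0.044, 0.032 and 0.012.

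**Figure D2:**
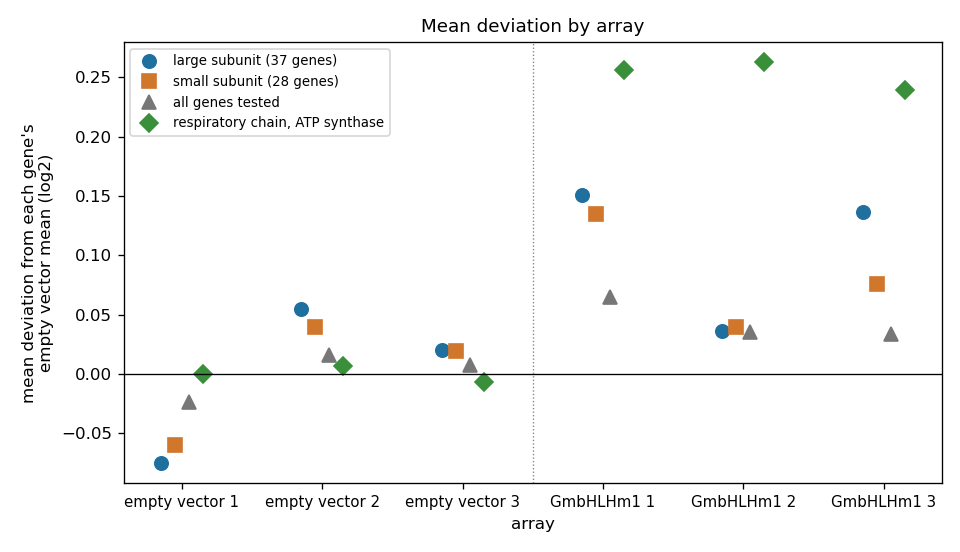
Mean deviation of log2 values from each gene's empty vector mean on each of the 6 arrays, for the large subunit, the small subunit, all tested genes and 39 respiratory chain and ATP synthase genes. Both subunits are lowest on empty vector replicate 1 and, within the GmbHLHm1 group, on replicate 2, where they lie at 0.036 and 0.039, while the respiratory chain genes lie between 0.24 and 0.26 on all 3 GmbHLHm1 arrays.

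**Figure D3:**
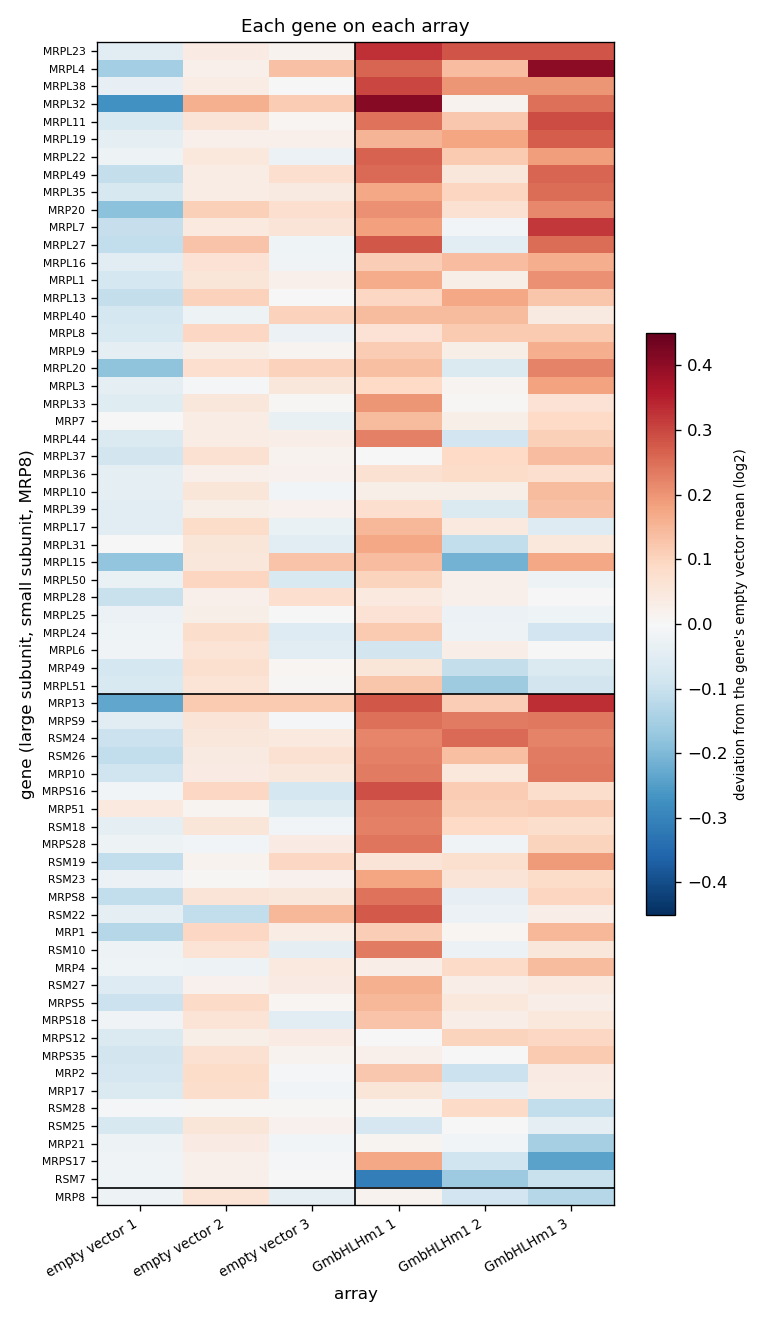
Deviation of each of the 66 genes from its empty vector mean on each array, on a log2 colour scale (red above, blue below), ordered within the subunits by the change. Most genes are blue on empty vector replicate 1, and RSM7 is blue on all 3 GmbHLHm1 arrays.

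The spread within the groups was in the range of other genes. The median SD over the members was 0.064 with the empty vector and 0.076 with GmbHLHm1. Over all tested genes it was 0.05 and 0.087. The GmbHLHm1 group had the larger SD in 42 of the 66 members, 63.6%, and in 74% of all genes.

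The precision bounds the size of any change. For 65 of the 66 members the unadjusted 95% interval of the change lay within 0.5 of 0 on the log2 scale, as it did for 87.9% of all genes. The exception was MRPL32, with an interval from -0.11 to 0.55. The median half-width of these intervals was 0.14, so a change as large as the members' median of 0.09 would mostly not be detectable gene by gene with 3 arrays per group. For 15 members, 22.7%, all GmbHLHm1 values lay above all controls, and 19.3% of all genes had this arrangement.

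Without empty vector replicate 1, the array on which most members were lowest, the members' median was 0.06 and that of all genes 0.009. In that fit 51 members had a change above 0, as did 53% of all genes, and MRPL23 was the one member that passed. Without GmbHLHm1 replicate 2 the members' median was 0.13.

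The partners of the mitochondrial ribosome were examined next, in lists taken from general knowledge of the pathway. Of 11 further ribosomal proteins with other kinds of names, such as IMG1, IMG2, NAM9 and PET123, 0 passed limma's test (1 at an unadjusted p under 0.05, higher). Their median change was 0.02, close to that of all genes and below the members' 0.09. Of 12 genes for assembly and for mitochondrial ribosomal RNA 0 passed (2 at an unadjusted p under 0.05, both higher), with a median of 0.10.

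Of 9 genes for translation factors, 8 of them above background on all 6 arrays, 1 rose (11.1%, against 7.45% of all genes). All 9 had a change above 0, as did 56.7% of all genes, and the median was 0.20. Their mean deviation was uneven with GmbHLHm1, at 0.30, 0.12 and 0.13 on the 3 arrays. The gene that rose was MEF2, the mitochondrial factor that helps take ribosomes apart after termination. It went from 10.67, 10.67 and 10.65 to 11.04, 11.12 and 11.02, a change of 0.39 ± 0.05 (SE; adjusted p = 0.00222). This exceeded the change of every ribosomal protein member, and MEF2 passed in all 6 fits without 1 array.

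Of 13 mitochondrial aminoacyl-tRNA synthetase genes 1 rose, MSF1, which charges the phenylalanine tRNA. Its values were 8.19, 8.26 and 8.24 in controls and 8.62, 8.59 and 8.75 with GmbHLHm1, a change of 0.42 ± 0.06 (SE; adjusted p = 0.00407). The share that rose was 7.69%, against 7.45% of all genes, and the list had a median of 0.10.

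Of 17 genes for translational activators of single mitochondrial messages and for membrane insertion 2 rose and none fell. The share that rose was 11.8%, against 7.45% of all genes, and the median was 0.09. MBA1, the membrane receptor that holds the ribosome at the inner membrane, changed by 0.34 ± 0.06 (SE; adjusted p = 0.0109). PET309, an activator of the COX1 message, changed by 0.31 ± 0.08 (SE; adjusted p = 0.0425), a call that was lost without any 1 array, with an adjusted p up to 0.154.

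Nuclear-encoded genes of the respiratory chain and ATP synthase moved more. Many of their products assemble with those the mitochondrial ribosome makes. The list also holds SDH1 to SDH4, NDI1, CYC1 and CYC7, whose products do not. Of the 39 listed genes 26 rose and 1 fell, together 69.2% against 12.1% of all genes, with a median of 0.26. The gene that fell was CYC7, the cytochrome c isoform of low-oxygen growth, by 0.43 (adjusted p = 0.0202, or up to 0.0939 without 1 array). Their mean deviations were between -0.007 and 0.007 on the empty vector arrays and between 0.24 and 0.26 on the GmbHLHm1 arrays. Neither the dip on empty vector replicate 1 nor that on GmbHLHm1 replicate 2 was seen in them. In the partner lists above, empty vector replicate 1 was the lowest control for 41.7% (assembly) to 84.6% (tRNA synthetases) of the genes. GmbHLHm1 replicate 2 was the lowest of its group for 45.5% (other ribosomal proteins) to 66.7% (translation factors). For the cytosolic ribosomal protein genes, described next, these shares were 36.1% and 76.2%. The dips were thus not particular to the members. The respiratory list was known from earlier results of these data to have risen, so its count is a reference and no separate support.

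The 122 cytosolic ribosomal protein genes had a median of -0.004, and 0 of them passed limma's test (3 higher and 2 lower at an unadjusted p under 0.05). Of these, 60 had a change above 0 and 62 below. The members thus lay between both lists, and the differences between lists were not tested.

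**Figure D4:**
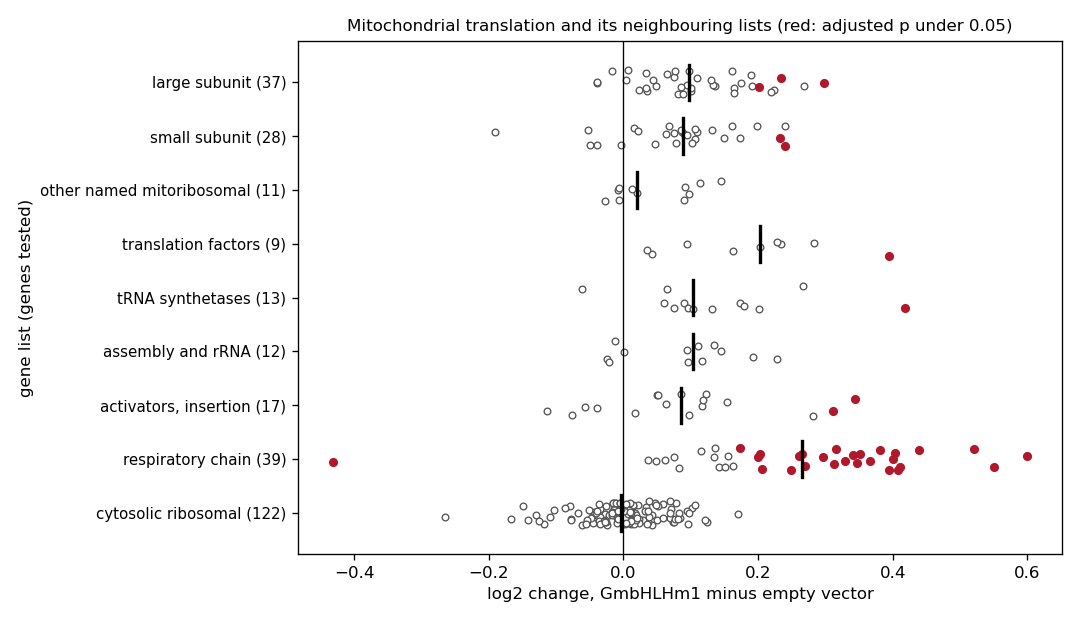
Log2 change of each gene, GmbHLHm1 minus empty vector, for the large and small mitochondrial ribosomal subunits and 7 further lists, with the number of genes tested in brackets. Red points passed the test at an adjusted p under 0.05, open points did not, black bars are medians, and the vertical scatter within a list carries no meaning. The subunit medians are 0.10 and 0.09, that of the respiratory chain list 0.26 and that of the cytosolic ribosomal proteins -0.004.

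Many members share their upstream region with a gene on the opposite strand that does not overlap them, as read from systematic names and gene order. This held for 36 of the 66, and 34 of these neighbours were tested. Of the 34, 3 rose and none fell. Their share of 8.82% was near the 7.45% of all genes that rose, and their median change of 0.03 near the 0.02 of all genes. For the members that rose, SMP3, next to MRPL23, had a change of -0.09 (adjusted p = 0.49), and NGG1, next to RSM24, had 0.05 (adjusted p = 0.764). The other 3 members that rose had no such neighbour. The neighbours that rose were CDC10 beside MRPL32, at 0.26, JHD1 beside RSM18, at 0.41, and a gene for a subunit of the signal recognition particle receptor beside RSM22, at 0.35. None of these 3 members passed the test. The 3 neighbour pairs were chosen for mention after their values were seen.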

How the data were processed

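The authors deposited 1 value per probe set and array, intensities on a linear scale made with RMA, per the submitters' processing notes. The software used for this is not given in the sources used here. In its usual form RMA includes quantile normalization, which makes the arrays' distributions alike, so a shift of all transcripts would not be seen. Per the labels' protocols, RNA came from a hot phenol extraction. The linear scale was read from the values, and log2 was taken here.

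Probe sets were named through the platform annotation and RefSeq's R64 gene table, from which names and gene order were taken and no coordinates are given. Of 10928 probe sets 5498 matched 5449 genes, and for 47 genes with several probe sets the one with the highest mean was kept. The rule's pattern was read in capitals, since 46 probe sets with gene identifiers outside this table bear such names in lower case. The array design also covers fission yeast, but the annotation states no species. The 95th percentile of 1746 probe sets without a budding yeast gene was the background level. MRP35, a symbol of the gene table that fits the pattern, the 8 listed genes of mitochondrial DNA, and promoter and protein sequences were not analysed here.

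Groups came from the labels, 3 arrays each. limma 3.58.1 in R 4.3.3 (lmFit, eBayes, two-sided, no filter, no block) was fitted on all 5449 genes with Benjamini-Hochberg adjustment and a threshold of 0.05. SEs are moderated. On simulated data of 5449 genes for GmbHLHm1 against empty vector the fit recovered 36.8% of genes changed by 0.25 on the log2 scale, 76% at 0.5 and 98% at 1, and it called 42 of 26245 unchanged genes. Of the members 64 had a change under 0.25 in size. The noise was independent between genes, unlike these data. The simulation changed 250 genes at each size beside the 26245 unchanged ones, a smaller share than the 12.1% that passed in these data. The adjustment is stricter where fewer genes change, so the recovered shares do not give the power for the members. Figures used matplotlib 3.10.9 in Python 3.11.15.

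Members, lists and subunit assignments were chosen with earlier results of these data known. Named were the members past the test, in each subunit the 4 highest and 4 lowest changes, the largest and smallest SD with GmbHLHm1, and MRP7, MRP8, MRPS12, MRPL32 and RSM22, and of other lists up to 2 genes past the test in each direction. Alternatives were a replicate block, quantile normalization, median centring, array weights, removal of dim probe sets, a robust prior with a trend, the mean over probe sets, all probe sets fitted together, log2(value + 50), and leaving out each array.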

Additional observations from a re-analysis of the deposited data

How the results depend on the processing

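Precision is limited by 3 arrays per group. The 5 members that rose became 1, MRPL23, with the replicate number as a block and also 1, MRPL23, when all probe sets were fitted together. Leaving out 1 array gave between 1 and 5 members. Without empty vector replicate 1 or 3 it was 1, and without empty vector replicate 2 or GmbHLHm1 replicate 3 it was 2. Without GmbHLHm1 replicate 1 it was 5, and without GmbHLHm1 replicate 2 it was 5, of which 3 were among the original 5. Array weights gave 7, adding MRPL11 and MRPL22 (named after their values were seen), and the other 6 alternatives that keep all arrays gave 4 or 5. No alternative called a member lower. All genes past the test numbered between 251 and 823 over the same alternatives, 427 with the block. The share of all genes that rose moved as well. It was 7.45% in the main fit, 9.03% with array weights, 5.3% with the block and 4.33% with all probe sets fitted together. Without 1 array it ran from 3.16% (empty vector replicate 1) to 8.04% (GmbHLHm1 replicate 2). Whether same-numbered arrays of both groups were paired cannot be decided here. Their deviations correlated at -0.065, -0.082 and 0.141, and those of differently numbered arrays at -0.142 to 0.185. With 3 arrays per group such correlations do not settle it. The cause of these losses was not tested, except that fits without an array rest on fewer samples.

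The members' median change stayed between 0.06 and 0.13 and moved by less than the SD between arrays under every alternative run. That SD was 0.06 in the empty vector group, a wide margin beside a median of 0.09. Some alternatives could not move the median and so do not bear on it. These were the block, removal of dim probe sets, the robust prior, the mean over probe sets and all probe sets fitted together. With quantile normalization the members' median was 0.06 while that of all genes was -0.01. In that setting 50 of 66 members had a change above 0, as did 44.9% of all genes. The large minus small mean difference stayed between 0.007, without GmbHLHm1 replicate 3, and 0.038.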

Other observations

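The array also holds 46 probe sets whose lower-case symbols fit the same pattern of names and whose gene identifiers are not in the budding yeast table. None of the 46 lay above background on all 6 arrays, and 2 did so on at least 1 array. Their median change was -0.02, with 20 of 46 above 0, and 0 passed limma's test within the background probe sets (4 at an unadjusted p under 0.05).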
